A study of Homo sapiens with 14 samples.

Results

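The genes of MHC class I presentation were followed here across 5 groups of Jurkat libraries. The members are 9 genes chosen by name: the heavy chain genes HLA-B, HLA-C, HLA-E and HLA-F, the light chain gene B2M, the peptide transporter and loading genes TAP1, TAP2 and TAPBP, and the transactivator gene NLRC5. Each was matched to 1 row of the deposited gene table by its Ensembl identifier on the primary chromosomes, so the members are 9 of the 61541 genes in the table. All 9 passed the filter on low counts, among 18963 genes tested, and the lowest count of a member in any library was 30, for HLA-F. The rule names genes and uses no measured value, but the members and gene lists were chosen with earlier results of these data known. Counts of members called, set beside shares over all genes, are therefore descriptions only.

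Jurkat is a human T-cell acute lymphoblastic leukaemia line, and polyadenylated RNA was sequenced from 14 libraries. Cells were given APS-2-79, an inhibitor of the kinase suppressor of Ras (KSR) proteins (KSRi, n = 3), at a dose and time that no source used here gives, and DMSO was the solvent control (DMSO, n = 3). Other Jurkat cells carried KSR2 guide 1 (n = 3) or KSR2 guide 2 (n = 3), and their controls carried a non-targeting guide (NT, n = 2). The sample titles call the genetic method CRISPR knockout, the design text calls it CRISPRi and the library names of the NT samples refer to shRNA, so the groups are named here by their guide. The extraction text speaks of transduced Jurkat cells for every sample, DMSO and KSRi included, and no source used here says whether the guide cells are clones or pools. Nor does one say whether replicates were separate cultures. The p-values therefore measure the spread between these samples only, and that spread may be technical.

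MHC class I molecules show short peptides from inside the cell to CD8 T cells and natural killer cells. Peptides made by the proteasome are carried into the endoplasmic reticulum by the transporter that TAP1 and TAP2 form together, and tapasin, the product of TAPBP, holds the transporter to an empty heavy chain until a peptide binds. The heavy chain reaches the cell surface only with the light chain beta-2 microglobulin. NLRC5 acts with the RFX complex, CREB/ATF proteins and NF-Y at a shared promoter module of class I genes, while interferon regulatory factors and NF-kB act at further elements. Leukaemic and other tumour cells can lower class I on their surface.

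Upstream sequences were examined because members of this pathway are known to share promoter elements. RefSeq windows (GRCh38.p14) were found for 7 of the 9 members, and none for HLA-E and NLRC5. The 5 windows below are the 180 bases before the first listed start, 5′ to 3′ on the gene's strand. They were chosen to set the closely related HLA-B and HLA-C beside B2M and TAPBP, which were all higher with the inhibitor, and TAP2, which was not called. Capitals mark matches on either strand to the ISRE core (GAAA, any 2 bases, GAAA), the X2 box core TGACG, the CCAAT box (CCAAT) and the NF-kB consensus, and neighbouring matches of 1 or several motifs can run together.
HLA-B, chr6:31357180-31357359, minus strand: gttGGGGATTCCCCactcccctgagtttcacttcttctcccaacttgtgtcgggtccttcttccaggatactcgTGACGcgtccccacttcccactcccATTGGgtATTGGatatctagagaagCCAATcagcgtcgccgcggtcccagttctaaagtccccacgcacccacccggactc
HLA-C, chr6:31272093-31272272, minus strand: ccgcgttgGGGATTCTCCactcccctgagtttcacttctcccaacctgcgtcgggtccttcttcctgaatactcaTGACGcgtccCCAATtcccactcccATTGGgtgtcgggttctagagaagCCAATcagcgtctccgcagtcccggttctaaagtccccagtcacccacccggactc
B2M, chr15:44711337-44711516, plus strand: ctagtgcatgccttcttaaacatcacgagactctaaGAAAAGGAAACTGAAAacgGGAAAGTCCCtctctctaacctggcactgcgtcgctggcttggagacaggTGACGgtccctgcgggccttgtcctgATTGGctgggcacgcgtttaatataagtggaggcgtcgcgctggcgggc
TAPBP, chr6:33314079-33314258, minus strand: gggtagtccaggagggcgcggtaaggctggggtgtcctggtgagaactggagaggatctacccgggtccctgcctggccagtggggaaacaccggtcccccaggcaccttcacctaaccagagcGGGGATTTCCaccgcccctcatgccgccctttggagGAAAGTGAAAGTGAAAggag
TAP2, chr6:32838740-32838919, minus strand: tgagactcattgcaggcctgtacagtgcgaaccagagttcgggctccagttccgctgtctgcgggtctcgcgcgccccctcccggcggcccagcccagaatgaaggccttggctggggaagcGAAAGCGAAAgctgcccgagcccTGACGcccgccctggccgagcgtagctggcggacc
Members were counted at their first listed start only, within 250 bases upstream. There the ISRE core, an element bound by interferon regulatory factors, was found in 5 of the 7 (HLA-F, B2M, TAP1, TAP2 and TAPBP). It was found in 3.02% of 35116 RefSeq promoters, where every listed start was counted. The second listed start of TAP1 held none of the motifs. The X2 box core, the piece of the class I module that CREB and ATF proteins bind, was found in 4 (HLA-B, HLA-C, B2M and TAP2), against 21.2% of all promoters. The CCAAT box, which NF-Y binds, was found in 5 (HLA-B, HLA-C, HLA-F, B2M and TAP1), against 32% of all promoters. The NF-kB consensus was found in 5 (HLA-B, HLA-C, B2M, TAP1 and TAPBP), against 5.21% of all promoters. The X2 box core lay at bases −35 to −31 from the start in TAP2 and −75 to −71 in B2M. It lay at −106 to −102 in HLA-B and −105 to −101 in HLA-C. Any part of these motifs in the calls was not tested. A match is a description of the letters, and no binding was measured. Only the stated letters were searched, so a window without a match, such as HLA-B or HLA-C for the ISRE core, can still hold a variant.

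Library totals ranged from 21710466 to 45897075 counts. The KSR2 transcript was at 0.453 to 0.664 CPM in the guide 1 libraries and 0.730 to 0.822 CPM in the guide 2 libraries, against 28.97 and 30.08 CPM in NT, in the direction of the labels. CPM is the count scaled by the library's TMM-corrected total. All 12 T-cell markers examined were tested, and their summed level was 3253 to 3740 CPM in KSRi and 3195 to 3270 CPM in DMSO, and at most 3860 CPM in any library. Myeloid markers summed to at most 1.13 CPM and natural killer markers to at most 4.42 CPM, and CSF1R of the myeloid list and NCR1 of the natural killer list were at 0 in every library. B-cell markers summed to 23.05 to 25.04 CPM in KSRi and 21.8 to 23.1 CPM in DMSO, and to 43.6 to 68.0 CPM in the guide and NT libraries. The replicates of KSRi differed from each other by more than those of DMSO, with a chi-square per degree of freedom of 15.8 to 45.0 between KSRi pairs and 5.46 to 7.33 between DMSO pairs. Replicate 1 of KSRi was the nearest to DMSO of its group in 68.3% of the genes called higher and 50.8% of those called lower. Its part in each member is given beside the results.

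Class I heavy chains and the light chain were higher with the inhibitor, TAPBP and NLRC5 were higher too, TAP1 was slightly higher, and TAP2 was not called. At an edgeR quasi-likelihood adjusted p under 0.05, 8 of the 9 members were higher in KSRi than in DMSO and 0 were lower. Over all tested genes 40.7% were called, 22% higher and 18.7% lower. The median log2 change of the 9 members was 0.52, beside 0.02 over all genes tested. In 7 members the 3 KSRi libraries did not overlap the 3 DMSO libraries, and such a separation was seen upward in 25% and downward in 21.9% of all genes tested. In bulk RNA a change in the level per cell and a change in which cells are present cannot be told apart.

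**Figure D1:**
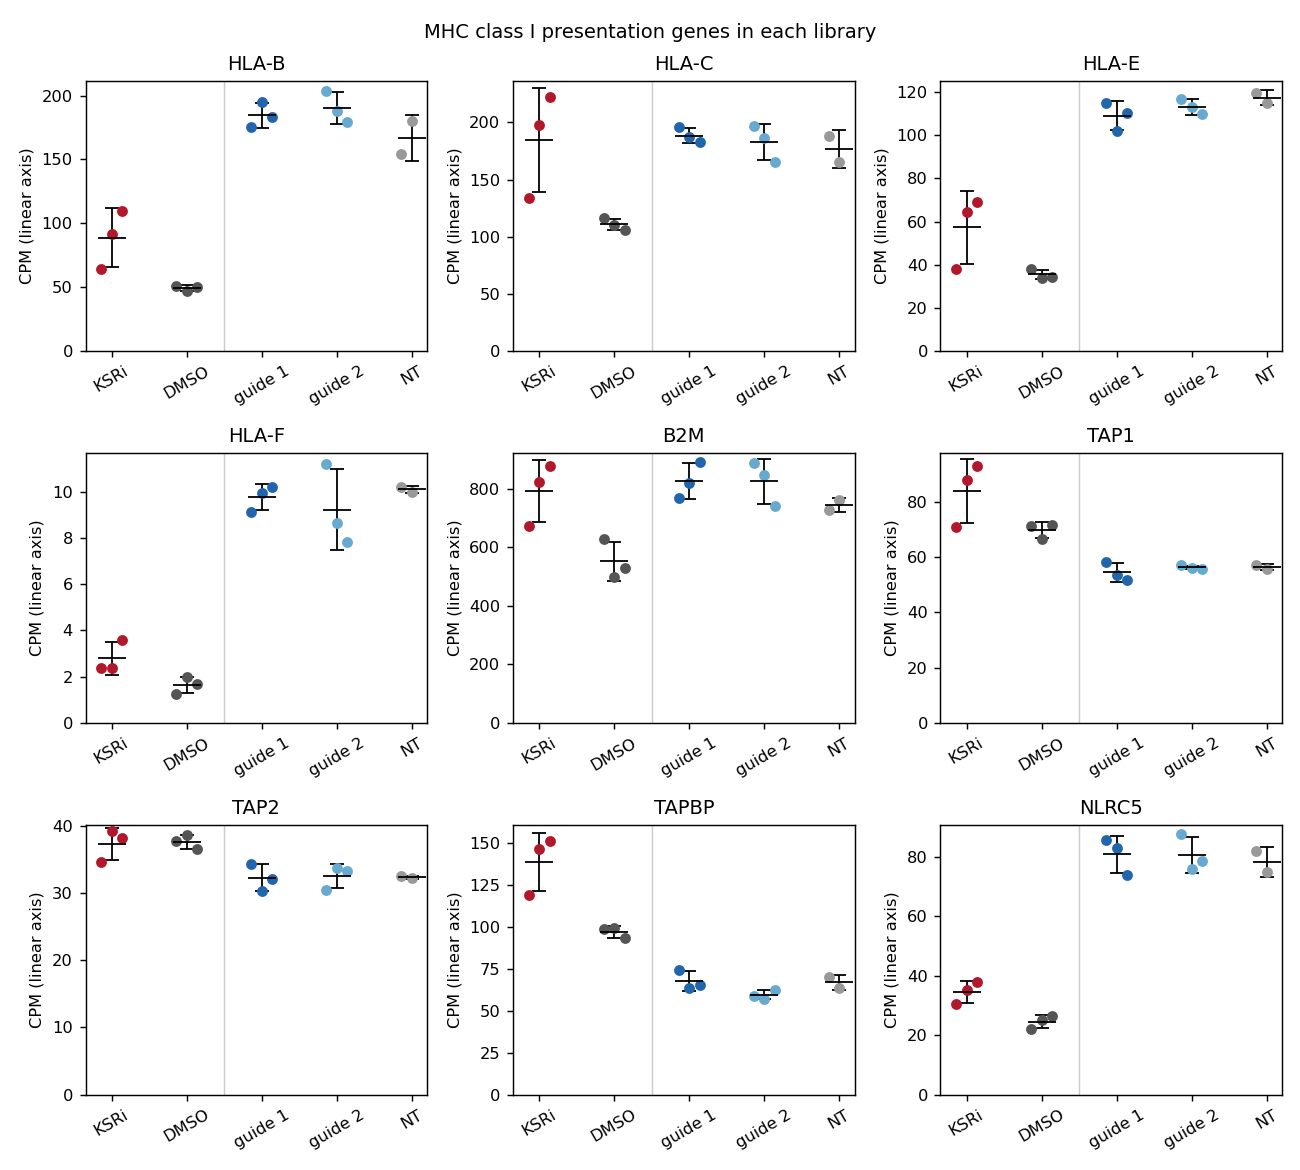
Level of each of the 9 genes in CPM (linear axis from 0) in each of the 14 libraries. Points are libraries in replicate order, the horizontal bar is the group mean and the error bar 1 SD, and KSRi and DMSO stand left of the line while guide 1, guide 2 and NT stand right of it. HLA-B lies at 64.3 to 110 CPM in KSRi, above 46.9 to 51.2 CPM in DMSO, and the guide and NT libraries overlap in most panels.

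HLA-B (ENSG00000234745; GRCh38, chromosome 6, 31269491 to 31357188, minus strand) encodes a classical heavy chain that presents peptides to CD8 T cells. It was measured at 64.3, 91.8 and 110 CPM in the KSRi libraries, against 51.2, 46.9 and 50.1 CPM in the DMSO libraries. Every KSRi library was above every DMSO library, and replicate 1 was the lowest of the KSRi group. It rose 1.79-fold, with a log2 change of 0.84 (SE 0.13), a 95% interval of 0.56 to 1.12 and an edgeR adjusted p of 0.000105.

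HLA-C (ENSG00000204525; chromosome 6, 31268749 to 31272130, minus strand), the other classical heavy chain analysed and a ligand of killer immunoglobulin-like receptors, was the more abundant of the pair per kilobase in KSRi and DMSO. Its values were 134, 198 and 222 CPM in KSRi, against 116, 110 and 106 CPM in DMSO. The groups did not overlap, and it rose 1.67-fold, with a log2 change of 0.74 (SE 0.13) and an edgeR adjusted p of 0.000268.

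HLA-E (ENSG00000204592; chromosome 6, 30489467 to 30494205, plus strand) encodes a non-classical heavy chain that presents leader peptides of other class I chains to the CD94/NKG2 receptors of natural killer cells. It stood at 38.1, 64.4 and 69.3 CPM in KSRi, against 38.0, 34.0 and 34.4 CPM in DMSO. The lowest KSRi library was above the highest DMSO library by less than 0.1 CPM, so the separation of the groups rests on a narrow gap. It rose 1.61-fold, with a log2 change of 0.69 (SE 0.15) and an edgeR adjusted p of 0.00133.

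HLA-F (ENSG00000204642; chromosome 6, 29722775 to 29738528, plus strand), a non-classical heavy chain, was the scarcest member per kilobase. It was measured at 2.38, 2.37 and 3.60 CPM in KSRi, against 1.26, 1.98 and 1.66 CPM in DMSO. The groups did not overlap, and it rose 1.62-fold, with a log2 change of 0.70 (SE 0.21), an edgeR adjusted p of 0.0132 and the widest interval of the 9 (0.26 to 1.14). The call was lost without DMSO replicate 1 (adjusted p = 0.0528) and without KSRi replicate 3 (adjusted p = 0.0553).

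B2M (ENSG00000166710; chromosome 15, 44711487 to 44718877, plus strand), the light chain shared by all class I molecules and encoded outside the MHC, was the most abundant member per kilobase. It stood at 672, 823 and 876 CPM in KSRi, against 626, 498 and 528 CPM in DMSO. The groups did not overlap, and it rose 1.43-fold, with a log2 change of 0.52 (SE 0.11) and an edgeR adjusted p of 0.000954. The light chain and the heavy chains were therefore all called in the same direction.

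The transporter genes, neighbours on chromosome 6, gave different values. TAP1 (ENSG00000168394; 32845209 to 32853978, minus strand) was measured at 71.1, 88.0 and 93.2 CPM in KSRi, against 71.5, 66.5 and 71.6 CPM in DMSO. The groups overlapped, because KSRi replicate 1 lay within the DMSO range. The change was 1.203-fold on the fitted scale, with a log2 change of 0.27 (SE 0.08) and an edgeR adjusted p of 0.0191, and the call was lost without DMSO replicate 2 (adjusted p = 0.0803), KSRi replicate 2 (0.078) or KSRi replicate 3 (0.0889). TAP2 (ENSG00000204267; 32821833 to 32838780, minus strand) was measured at 34.7, 39.2 and 38.3 CPM in KSRi, against 37.7, 38.7 and 36.6 CPM in DMSO. Its groups overlapped throughout, with a log2 change of −0.01 (SE 0.07, 95% interval −0.17 to 0.15, edgeR adjusted p = 0.927).

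TAPBP (ENSG00000231925; chromosome 6, 33299694 to 33314387, minus strand), which encodes tapasin, was called with a larger change than either transporter gene. Its values were 119, 146 and 151 CPM in KSRi, against 98.9, 99.3 and 93.2 CPM in DMSO. The groups did not overlap, and it rose 1.43-fold, with a log2 change of 0.52 (SE 0.09) and an edgeR adjusted p of 0.000183.

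NLRC5 (ENSG00000140853; chromosome 16, 56989485 to 57083531, plus strand), the transactivator of class I genes, was measured at 30.5, 35.3 and 37.8 CPM in KSRi, against 22.0, 25.1 and 26.6 CPM in DMSO. The groups did not overlap, and it rose 1.40-fold, with a log2 change of 0.49 (SE 0.10) and an edgeR adjusted p of 0.000763.

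KSRi replicate 1 was the lowest of the KSRi libraries in 8 of the 9 members. Its shift from the DMSO mean, as a percentage of the mean shift of replicates 2 and 3, was 11.4% for HLA-E, 30% for HLA-C, 37.2% for HLA-B, 46.5% for B2M, 48.4% for TAPBP, 54.8% for NLRC5 and 65.8% for HLA-F. It was 7.01% for TAP1. Over the 4175 genes called higher the median share was 72.7%, and over the 3537 called lower it was 81.5%. Replicate 1 therefore moved less in the 8 members called than in the typical called gene. Its mitochondrial share of counts was the highest of the KSRi libraries, at 2.51%, against 2.06% in replicate 2 and 1.12% in replicate 3, and the part of this in the result was not tested. Without replicate 1 the log2 changes were 1.03 for HLA-B, 0.92 for HLA-C, 0.91 for HLA-E, 0.77 for HLA-F, 0.62 for B2M, 0.62 for TAPBP, 0.56 for NLRC5 and 0.37 for TAP1, and all 8 were called.

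The comparison of the guides with NT asked what loss of the KSR2 transcript did to the same genes. None of the 9 members was called for both guides together, for guide 1 or for guide 2 (edgeR adjusted p under 0.05), and 0 of 9 had an unadjusted p under 0.05 in these comparisons. Calls over all genes were rare too, at 0.0158% for both guides, 0.00527% for guide 1 and 0.0105% for guide 2. In no member did the 6 guide libraries stand apart from the NT libraries, while 4.41% of all genes stood apart upward and 5.15% downward. The member log2 changes for both guides together lay between −0.09 for HLA-F and 0.16 for HLA-B, with 95% intervals that stayed within −0.39 to 0.44 and a lowest adjusted p of 0.989. The intervals leave out a change as large as the 0.84 seen for HLA-B with the inhibitor, and small changes were not detectable with these libraries.

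HLA-B had 175, 195 and 183 CPM with guide 1 and 204, 188 and 179 CPM with guide 2, against 154 and 180 CPM in NT. HLA-C had 196, 187 and 183 CPM with guide 1 and 197, 186 and 165 CPM with guide 2, against 188 and 165 CPM in NT. In both genes the guide libraries overlapped the NT libraries. HLA-E had 115, 102 and 110 CPM with guide 1 and 117, 113 and 110 CPM with guide 2, against 120 and 115 CPM in NT. HLA-F had 9.13, 9.96 and 10.2 CPM with guide 1 and 11.2, 8.63 and 7.84 CPM with guide 2, against 10.2 and 9.999 CPM in NT. All HLA-E values with guide 1 were just under the NT values, without a call, and the HLA-F values overlapped.

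B2M had 769, 820 and 889 CPM with guide 1 and 888, 846 and 739 CPM with guide 2, against 726 and 759 CPM in NT. The guide 1 libraries were all above NT, and the guide 2 libraries overlapped it. TAP1 was at 51.7 to 58.4 CPM with guide 1 and 56.0 to 57.1 CPM with guide 2, against 55.8 to 57.3 CPM in NT. TAP2 was at 30.4 to 34.4 CPM with guide 1 and 30.5 to 33.8 CPM with guide 2, against 32.3 to 32.6 CPM in NT. NLRC5 was at 74.0 to 85.8 CPM with guide 1 and 75.8 to 87.7 CPM with guide 2, against 74.9 to 82.0 CPM in NT. These 3 genes overlapped in both comparisons.

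TAPBP had 74.3, 63.5 and 65.5 CPM with guide 1 and 58.8, 57.3 and 62.6 CPM with guide 2, against 70.1 and 63.8 CPM in NT. The guide 2 values were all below NT and below guide 1. Between the guides the log2 difference of TAPBP, guide 2 minus guide 1, was −0.19 (SE 0.09), with an unadjusted p of 0.0485 and an edgeR adjusted p of 1, and no member was called between the guides, where 0.00527% of all genes were, while 4.99% of all genes stood apart upward and 5.18% downward. With 3 libraries against 2, separations without a call are frequent: 12.9% of all genes were higher and 14.2% lower in every guide 1 library than in NT, and 10.3% and 10.8% with guide 2.

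**Figure D2:**
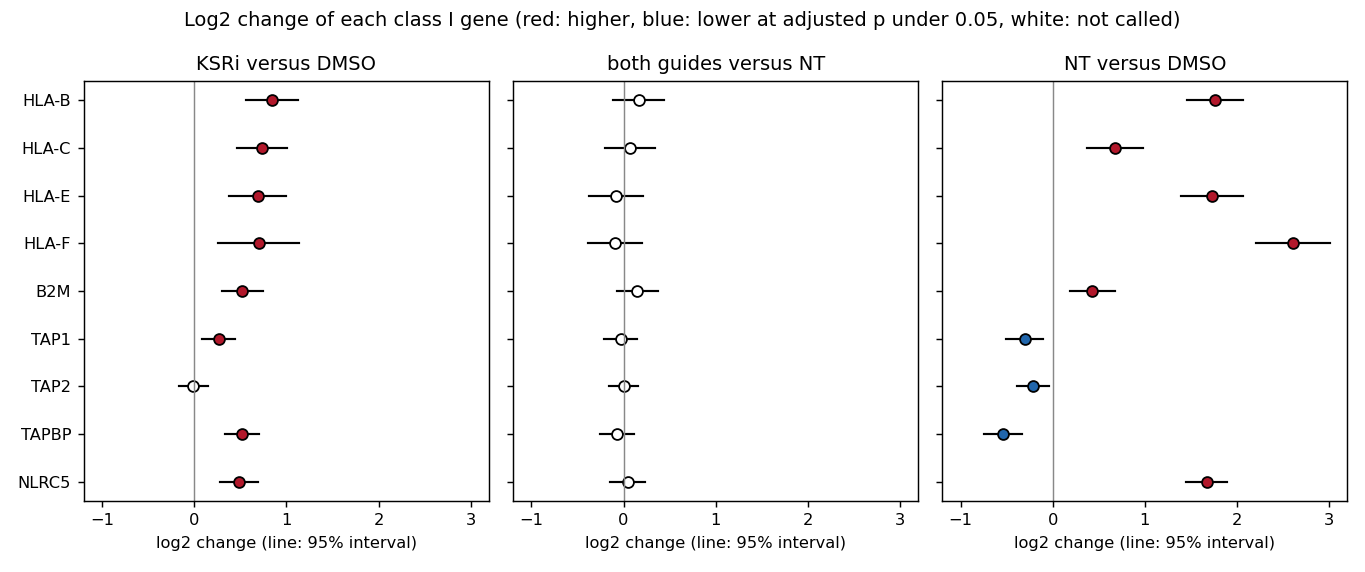
Log2 change of each gene in 3 comparisons, KSRi over DMSO, both guides over NT and NT over DMSO, with a line for the 95% interval. Filled points passed an edgeR adjusted p under 0.05; 8 genes are higher with KSRi, none is called with the guides, and NT over DMSO has 6 higher and 3 lower.

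The difference between the inhibitor effect and the guide effect was tested in the same fit, as KSRi over DMSO minus both guides over NT. It was called in 6 of the 9 members, all toward a higher value with the inhibitor, while 28.6% of all genes were called, 16.6% in that direction. The log2 differences were 0.79 (SE 0.25) for HLA-F, 0.77 (SE 0.20) for HLA-E, 0.68 (SE 0.18) for HLA-B, 0.67 (SE 0.18) for HLA-C, 0.59 (SE 0.12) for TAPBP and 0.44 (SE 0.13) for NLRC5. Their edgeR adjusted p-values were 0.00199 for TAPBP and 0.00933 for HLA-E at the low end and 0.026 for HLA-F at the high end. The difference was not called for B2M (0.37, adjusted p = 0.074), TAP1 (0.30, adjusted p = 0.0755) and TAP2 (−0.01, adjusted p = 0.947). Only 3 members were called without NT replicate 1 (HLA-B, HLA-E and TAPBP), so the count depends on 1 of the 2 NT libraries. HLA-C then had an adjusted p of 0.0776, HLA-F of 0.072 and NLRC5 of 0.111. Without NT replicate 2 the call was lost for HLA-B (0.0748) and HLA-F (0.0585), and without DMSO replicate 1 for HLA-F (0.0686) and NLRC5 (0.0551). The call for HLA-F was also lost without DMSO replicate 3 (0.058) or KSRi replicate 3 (0.0656). Without DMSO replicate 1 B2M was called (0.0302), and without KSRi replicate 1 both B2M (0.00625) and TAP1 (0.00125) were.

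The control groups themselves differed in every member. NT compared with DMSO gave 6 members higher and 3 lower at an edgeR adjusted p under 0.05, in a comparison where 65.8% of all genes were called, 34.6% higher and 31.2% lower. The NT libraries stood apart from the DMSO libraries in all 9, beside 41.5% of all genes upward and 37.8% downward. NT carried a guide and DMSO a solvent, and any other difference in handling between them is not described, so their parts cannot be told apart. Marker levels moved with this difference too. T-cell markers summed to 3741 to 3860 CPM in NT and 3195 to 3270 CPM in DMSO, with 5 of the 12 genes higher in NT and 4 lower. PTPRC, the pan-leukocyte antigen CD45, averaged 1205 CPM in NT and 496 CPM in DMSO, a difference larger than that of the sum, while CD3G had a log2 difference of −1.02. B-cell markers, of which CD79A alone passed the filter on low counts, summed to 46.9 to 68.0 CPM in NT and 21.8 to 23.1 CPM in DMSO, and natural killer markers, mostly NCAM1, to 3.76 to 4.42 CPM in NT and 2.01 to 3.03 CPM in DMSO. Their part in the result was not tested. With upper-quartile instead of TMM scaling the share of calls that were higher moved to 66.4%, against 52.6%, and the median of all genes moved by 0.22 on the log2 scale.

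HLA-F had the largest member difference, at 10.2 and 9.999 CPM in NT and 1.26 to 1.98 CPM in DMSO (log2 difference 2.61, SE 0.19, adjusted p = 3.12e-09). HLA-B differed by 1.76 (SE 0.14, adjusted p = 1.53e-08), HLA-E by 1.73 (SE 0.16, adjusted p = 5.74e-08) and NLRC5 by 1.67 (SE 0.10, adjusted p = 4.69e-10), all higher in NT. HLA-C and B2M were higher by less, 0.68 (SE 0.14) and 0.43 (SE 0.12). The antigen-processing genes went the other way. TAPBP was lower in NT, with a log2 difference of −0.54 (SE 0.10, adjusted p = 0.000145), and so were TAP1, at −0.31 (SE 0.10, adjusted p = 0.0101), and TAP2, at −0.22 (SE 0.08, adjusted p = 0.03). With upper-quartile scaling TAP1 and TAP2 differed by −0.09 and −0.00 and were not called, while TAPBP at −0.32 (adjusted p = 0.0047) and B2M at 0.65 were. With only genes of at least 5 CPM in 3 libraries fitted, TAP1 at −0.17 and TAP2 at −0.08 were not called. The call for TAP1 was lost without NT replicate 2 (adjusted p = 0.0696). That for TAP2 was lost without DMSO replicate 1 (0.0566), DMSO replicate 2 (0.0772), NT replicate 1 (0.0948) or NT replicate 2 (0.124).

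KSRi over DMSO and NT over DMSO share the DMSO libraries, so no likeness between them is drawn, and their values stand side by side. In KSRi the log2 changes were 0.84 for HLA-B, 0.69 for HLA-E, 0.70 for HLA-F and 0.49 for NLRC5, and in NT 1.76 for HLA-B, 1.73 for HLA-E, 2.61 for HLA-F and 1.67 for NLRC5. HLA-C changed by 0.74 in KSRi and 0.68 in NT, and B2M by 0.52 in KSRi and 0.43 in NT. TAPBP changed by 0.52 in KSRi and −0.54 in NT, and TAP1 by 0.27 in KSRi and −0.31 in NT. TAP2 had log2 changes of −0.01 in KSRi and −0.22 in NT.

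The sum of the 4 heavy chains was 333 ± 85.4 CPM in KSRi and 197 ± 8.16 CPM in DMSO (SD, n = 3 each). It was 492 ± 4.60 CPM under guide 1 and 496 ± 33.0 CPM under guide 2 (n = 3 each), against 472 ± 1.85 CPM in NT (n = 2). These sums rest on the TMM scaling. Ratios between members, taken within each library, do not depend on the scaling between libraries. They are ratios of CPM that are not corrected for length, so they are read between groups only. HLA-B was 0.480 ± 0.0152 times HLA-C in KSRi and 0.447 ± 0.0242 times in DMSO, with overlapping ranges. It was 0.981 ± 0.0762 times with guide 1 and 1.04 ± 0.0380 times with guide 2, against 0.954 ± 0.190 times in NT. All guide and NT libraries were above all KSRi and DMSO libraries in this ratio.

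The heavy chain sum was 0.417 ± 0.0553 of B2M in KSRi and 0.360 ± 0.0288 of B2M in DMSO, and 0.598 ± 0.0485 with guide 1 and 0.602 ± 0.0206 with guide 2, against 0.635 ± 0.0224 in NT. The ranges overlapped, at 0.355 to 0.462 in KSRi and 0.330 to 0.387 in DMSO. TAP1 was 2.24 ± 0.194 times TAP2 in KSRi and 1.86 ± 0.125 times in DMSO, where every KSRi library (2.05 to 2.44) was above every DMSO library (1.72 to 1.96). It was 1.69 ± 0.0790 with guide 1 and 1.73 ± 0.119 with guide 2, against 1.74 ± 0.0205 in NT. With 3 libraries against 3, an exact permutation test cannot go below a 2-sided p of 0.1, so none is given for the ratios. How many other gene pairs separate in this way was not computed. The separations in HLA-B over HLA-C and TAP1 over TAP2 are therefore descriptions only.

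**Figure D3:**
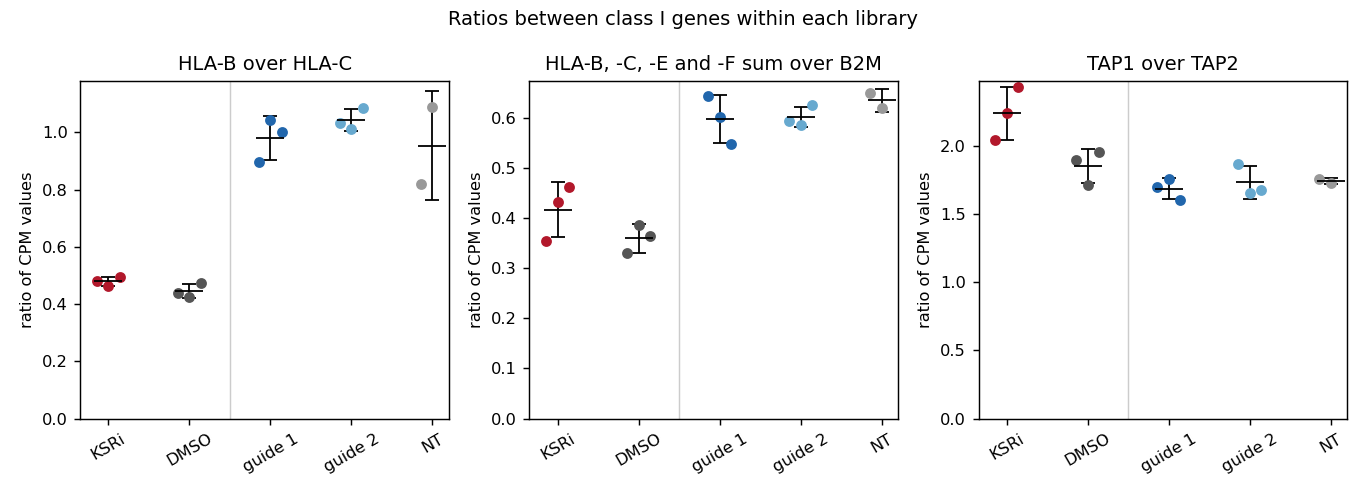
Ratio of CPM values within each library for 3 pairs of quantities: HLA-B over HLA-C, the sum of HLA-B, HLA-C, HLA-E and HLA-F over B2M, and TAP1 over TAP2. Points are libraries, bars the group mean and 1 SD. HLA-B over HLA-C lies at 0.426 to 0.495 in KSRi and DMSO libraries and at 0.819 to 1.09 in guide and NT libraries.

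Levels between genes were compared per kilobase of the principal transcript. In DMSO the order was B2M at 323 ± 39.3 CPM per kb, HLA-C at 72.1 ± 3.35, TAPBP at 51.5 ± 1.80, HLA-B at 31.9 ± 1.46, TAP1 at 23.6 ± 0.991, TAP2 at 15.1 ± 0.427, HLA-E at 13.6 ± 0.847, NLRC5 at 3.60 ± 0.339 and HLA-F at 0.998 ± 0.223 (SD, n = 3 each). Every step in that order was larger than the SDs of its neighbours, the closest being TAP2 and HLA-E. The SDs do not show reads lost or gained through shared sequence. Such sequence makes up 80.2% of the 50-base stretches of TAP2, so the place of TAP2 in the order is uncertain. In NT HLA-B stood at 108 ± 11.6 and HLA-C at 115 ± 10.7 CPM per kb (n = 2), which do not differ beyond their spread, and HLA-E at 45.2 ± 1.27 was above TAPBP at 35.5 ± 2.36.

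The wider pathway was read from lists of genes that work with the members, without the members themselves, and with NT over DMSO beside KSRi over DMSO. Over all genes tested 22% were called higher and 18.7% lower in KSRi, and 34.6% higher and 31.2% lower in NT, and a list with shares near these is no result about the list. With both guides 0 genes of every one of these lists were called (edgeR adjusted p under 0.05). Values of single genes in these lists are log2 changes unless CPM is named. The class I-like molecules were mostly called higher. Of 13 tested, 10 were higher in KSRi than in DMSO and 0 lower (median log2 change 0.53), and 8 were higher and 4 lower in NT than in DMSO. MR1, which presents vitamin B metabolites, stood at 47.4 CPM in KSRi and 18.3 CPM in DMSO (log2 change 1.37, SE 0.08, adjusted p = 1.19e-09). CD1B, a lipid-presenting molecule, rose by 0.81 (SE 0.07, adjusted p = 1.87e-07). The NKG2D ligand genes MICA and ULBP2 rose by 1.23 (SE 0.12) and 0.78 (SE 0.09).

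The lists of peptide supply each held genes called higher, genes called lower and genes not called in KSRi. Of 6 other loading and folding genes 1 was higher in KSRi than in DMSO and 2 were lower. The chaperone gene CALR, whose product sits in the loading complex, rose by 0.29 on the log2 scale (SE 0.11, adjusted p = 0.0492), while the chaperone genes CANX and HSPA5 changed by −0.26 (SE 0.07) and −0.65 (SE 0.07). In NT 4 of these 6 were higher than in DMSO and 1 was lower. Of 7 peptide-trimming genes 1 was higher and 3 were lower in KSRi. ERAP1, the aminopeptidase that trims peptides in the endoplasmic reticulum, rose by 0.33 (SE 0.07, adjusted p = 0.000879). The cytosolic peptidase genes TPP2, LAP3 and NPEPPS changed by −0.62, −0.29 and −0.22. In NT 1 was higher and 6 were lower. Of the 5 immunoproteasome and proteasome activator genes, PSMB9 rose by 0.39 (SE 0.10, adjusted p = 0.0055), PSME2 changed by −0.37 (SE 0.11, adjusted p = 0.0103), and PSMB8, PSMB10 and PSME1 were not called. In NT 0 were higher and 2 lower.

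Partners of NLRC5 were mostly not called. Of 8 tested, RFX5, a subunit of the RFX complex, stood at 177 CPM in KSRi and 131 CPM in DMSO (log2 change 0.43, SE 0.06, adjusted p = 2.27e-05), 0 were lower and 7 were not called. In NT 1 of these 8 was higher than in DMSO and 2 were lower. Of 13 interferon and NF-kB factors acting on class I promoters 6 were higher and 1 was lower. IRF7 rose by 1.36 (SE 0.14, adjusted p = 9.08e-07), STAT2 by 0.70 (SE 0.07, adjusted p = 5.53e-07) and STAT3 by 0.36 (SE 0.09, adjusted p = 0.00302). IRF1, the interferon-induced activator of class I genes, changed by −0.48 (SE 0.07, adjusted p = 6.3e-05). In NT 4 of these 13 were higher and 3 lower than in DMSO.

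Of 10 interferon receptor and kinase genes 2 were higher and 2 lower in KSRi, near the shares over all genes, and 4 were higher and 2 lower in NT. TYK2 rose by 0.58 (SE 0.08) and JAK1 by 0.20 (SE 0.06), and PTPN2, a phosphatase that acts on JAK and STAT proteins, changed by −0.64 (SE 0.07) and IFNAR2 by −0.18 (SE 0.07). Of 9 other regulators of class I, 2 were higher and 2 lower in KSRi. EED and EZH2, subunits of the Polycomb repressive complex that silences class I loading genes in some tumours, changed by −0.48 (SE 0.08) and −0.20 (SE 0.07), while SUSD6, whose product takes part in removing class I from the surface, rose by 0.21 (SE 0.08). SPPL3, an intramembrane protease that limits the glycosphingolipids that shield class I, rose by 0.25 (SE 0.07). In NT 1 of these 9 was higher than in DMSO and 6 were lower. Of 6 tested class II genes 5 were higher and 1 lower in KSRi, and 5 higher and 0 lower in NT. They were scarce, with HLA-DQB1 at 3.07 CPM in KSRi and 1.44 CPM in DMSO (log2 change 1.13, SE 0.22, adjusted p = 0.000621). The lower one was HLA-DOB, at 0.574 CPM in KSRi and 1.62 CPM in DMSO (log2 change −1.47, SE 0.24, adjusted p = 0.000131). CIITA, CD74 and HLA-DRA did not pass the filter on low counts. Of 3 tested genes of receptors that bind class I, CD8B, a chain of the T-cell co-receptor, was higher in KSRi, at 2.80 CPM, than in DMSO, at 1.10 CPM (log2 change 1.40, SE 0.20, adjusted p = 4.99e-05), and 0 were lower. In NT 1 of these 3 was higher than in DMSO and 2 were lower, CD8B with a log2 difference of −0.89 (adjusted p = 0.015).

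**Figure D4:**
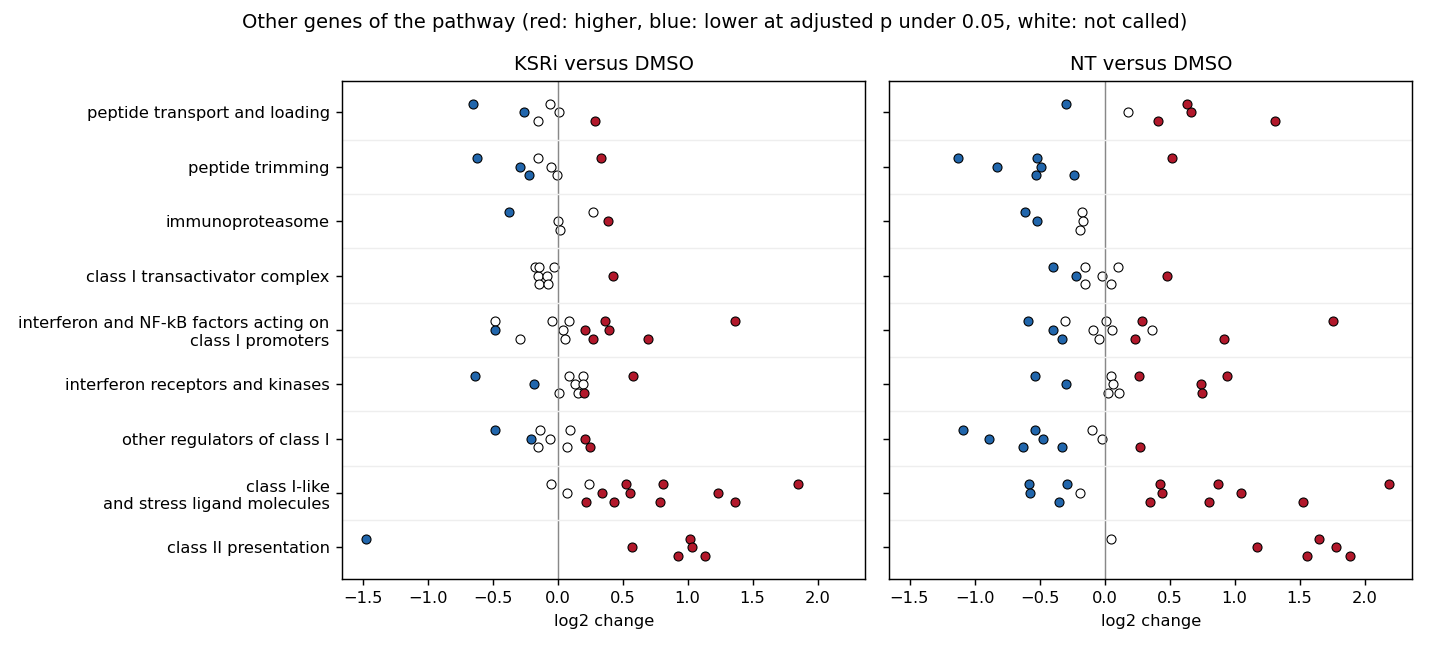
Log2 change of each tested gene of 9 pathway lists, without the 9 members, for KSRi over DMSO (left) and NT over DMSO (right). Each point is a gene, red and blue mark genes called higher and lower at an edgeR adjusted p under 0.05, and the class I-like list has 10 called higher and 0 lower with KSRi.

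By list, the median log2 change in KSRi was 0.97 for class II, 0.53 for class I-like molecules, 0.14 for interferon receptors and kinases, 0.09 for interferon and NF-kB factors and 0.02 for the immunoproteasome. It was −0.06 for other regulators of class I, −0.10 for loading and folding, −0.11 for partners of NLRC5 and −0.15 for trimming, beside 0.02 over all genes tested. In NT it was 1.60 for class II, 0.52 for loading and folding, 0.42 for class I-like molecules, 0.09 for interferon receptors and kinases and 0.01 for interferon and NF-kB factors. It was −0.08 for partners of NLRC5, −0.19 for the immunoproteasome, −0.48 for other regulators of class I and −0.52 for trimming, beside 0.04 over all genes tested. No median is given for the class I receptors, of which 3 were tested.

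The genes lying between the MHC members were counted beside them. Between the first and last member on chromosome 6 (29722775 to 33314387) 133 other genes were tested, of which 36 (27.1%) were higher and 21 lower in KSRi than in DMSO, with a median log2 change of 0.00, beside 22% higher and 18.7% lower over all genes. Without symbols starting HLA- there were 123, of which 29 (23.6%) were higher. In NT compared with DMSO 51 of the 133 were higher and 34 lower, beside 34.6% and 31.2% of all genes, and with both guides 0 were called.

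The genes whose log2 CPM followed the 9 members most closely over the 14 libraries were named by a rule. It used the mean of the members' log2 CPM after each was z-scored, so that abundant members did not dominate. It ranked 11051 genes with a symbol and a mean of at least 5 CPM, leaving out the members and all symbols starting HLA-. They were CTDSP2 (Pearson r = 0.972), PHGDH (0.962), MACROD1 (0.961), SMUG1 (0.961), GSTM4 (0.959) and NIT1 (0.958). Their Spearman rho was lowest for PHGDH and NIT1 (0.7055 each) and highest for MACROD1 (0.9341). The 14 libraries share 5 groups, so these coefficients describe group differences and carry no p-value. Each member is itself part of that mean, so its r is not comparable with those above. Among the members r with the mean was 0.990 for HLA-C, 0.916 for B2M, 0.799 for HLA-E and 0.792 for HLA-B. It was 0.685 for NLRC5 and 0.676 for HLA-F, and −0.06 for TAP1, −0.13 for TAPBP and −0.32 for TAP2.

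Sharing of sequence limits some values. In the GENCODE v29 annotation (GRCh38), 80.2% of the 50-base stretches of the TAP2 transcript also occur in other genes, chiefly in a same-strand gene that overlaps 2064 of its exonic bases and had at most 2 counts in any library. For HLA-C the share was 6.79%, for HLA-E 5.13%, for HLA-B 2.54%, for HLA-F 1.7% and for TAP1 1.07%, and for B2M, TAPBP and NLRC5 it was 0%. No source used here says how such reads were assigned, so the split among the HLA genes is uncertain. The annotated span of HLA-B runs into that of HLA-C on the same strand, and these genes share 35 exonic bases. Jurkat alleles can also differ from the reference genome. HLA-F-AS1 overlaps 535 exonic bases of HLA-F on the opposite strand. It averaged 0.408 CPM in KSRi and 0.123 CPM in DMSO (log2 change 1.60, edgeR adjusted p = 0.0307). In NT it averaged 1.53 CPM, with guide 1 2.00 CPM and with guide 2 1.85 CPM. PSMB8-AS1 overlaps 456 bases of TAP1 and averaged 6.41 CPM in KSRi and 4.81 CPM in DMSO (log2 change 0.41, edgeR adjusted p = 0.0105). In NT it averaged 9.44 CPM, with guide 1 10.1 CPM and with guide 2 9.71 CPM. Whether counting used the strand is also unknown here, so reads of these antisense genes cannot be told apart from those of HLA-F and TAP1.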

How the data were processed

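Polyadenylated RNA of 14 Jurkat libraries in 5 groups was analysed from the authors' deposited count table, which gives whole reads for each Ensembl gene without normalization. The submitters' processing notes name the GRCh38 build, STAR 2.7.11b and DESeq2 1.42.1. No source used here names the counting program, the strand setting or the annotation release, which matter for overlapping and near-identical genes.

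The counts were fitted in R 4.3.3 with edgeR 4.0.16, using TMM factors, filterByExpr (18963 of 61541 genes kept, 25747 being 0 in all libraries), 1 mean per group over all 14 libraries, the quasi-likelihood F test, and Benjamini-Hochberg adjustment over all tested genes (threshold 0.05). The common biological coefficient of variation was 8.6%. CPM values use TMM-scaled library sizes. Each error is an SD over libraries or, for a log2 change, its standard error. Alternatives were upper-quartile and RLE factors, no filter, at least 5 CPM in 3 libraries, DESeq2 1.42.0, limma-voom (limma 3.58.1), only the groups compared, a replicate block, a threshold of 0.01 and each library left out. The procedure was tested on simulated data.

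The members and gene lists were chosen with earlier results of these data known. Named genes are the members, KSR2 as a check, up to 4 per list with the lowest p for KSRi over DMSO, and the 6 genes most like the member mean. Other genes named without a call were added after their values were seen. The lists name more genes than are reported here.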

Additional observations from a re-analysis of the deposited data

Results flagged for a closer look

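The effect of the inhibitor (KSRi over DMSO) differed from that of the guides (both guides over NT) in 6 of the 9 genes, by the test of the difference itself (edgeR quasi-likelihood, adjusted over all tested genes), all 6 higher, beside 28.6% of all genes called and 16.6% called higher. The count fell to 3 without NT replicate 1 and was 2 at an adjusted p under 0.01. The log2 difference, inhibitor effect minus guide effect, was 0.68 for HLA-B (adjusted p = 0.0117), 0.67 for HLA-C (0.0113), 0.77 for HLA-E (0.00933), 0.79 for HLA-F (0.026), 0.59 for TAPBP (0.00199) and 0.44 for NLRC5 (0.0197). In each of the 6 the 3 KSRi libraries were above the 3 DMSO libraries, beside 25% of all genes tested. That separation concerns the inhibitor arm alone and not the difference from the guides. The inhibitor and guide arms have different controls, and NT differed from DMSO in all 9 members. The part of that difference in these values was not tested.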

How the results depend on the processing

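Over 23 settings the members called for KSRi over DMSO numbered 6 to 8, and HLA-B, HLA-C, HLA-E, B2M, TAPBP and NLRC5 were called in all 23. HLA-F was called in 20 and TAP1 in 18, TAP1 being lost, for instance, when only KSRi and DMSO were fitted (adjusted p = 0.0655). Each guide comparison gave 0 member calls in all 23. NT over DMSO gave 7 to 9, with TAP1 called in 19 and TAP2 in 14. For the inhibitor effect minus the guide effect, 6 members became 2 at an adjusted p under 0.01, and 3 to 8 when each library was left out, with 3 without NT replicate 1. A fit of only the groups compared was not run for that difference, which needs all 5 groups. No called value changed direction. Deviations of same-numbered KSRi and DMSO libraries from their group means correlated at −0.10, −0.04 and 0.00. Those of guide 1 and NT correlated at 0.11 and 0.09, and those of guide 2 and NT at −0.00 and 0.04. With so few libraries per group these values cannot decide whether same-numbered libraries were handled together, which no source used here states. With the replicate block 8 members were called for KSRi over DMSO, and the NT over DMSO difference of TAP2 was −0.21 (adjusted p = 0.0551). Precision is limited by the 2 NT libraries and, for HLA-F, by counts as low as 30.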
